A study of Homo sapiens with 9 samples.

Results

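Semaphorins are secreted or membrane-bound guidance proteins, and plexins are the transmembrane receptors that carry their signal into the cell. Neuropilins are co-receptors with short cytoplasmic tails that hold class 3 semaphorins in a complex with type A plexins and also bind VEGF. A plexin bound by its ligand inactivates small GTPases of the Ras and Rap families, which changes adhesion and the actin skeleton. The genes of these families were chosen by name (semaphorins of classes 3 to 7, plexins A to D and both neuropilins), which gave 31 of the 58233 genes in the deposited tables. They comprised 20 semaphorins, 9 plexins and 2 neuropilins, of which 7 lay on chromosome 3 and 5 on chromosome 7.

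RNA was sequenced from TC32, an established cell line derived from an Ewing sarcoma, a bone and soft tissue tumour driven by a fusion of EWSR1 with an ETS-family gene. In 3 libraries the cells had received Wnt3a, a ligand of the canonical Wnt pathway, for 28 h, with SB-505124, an inhibitor of the TGF-beta type I receptor kinases, present during the last 24 h (called the SB-505124 libraries). The 3 Wnt3a libraries came from cells given Wnt3a for the same time and DMSO in place of the inhibitor, and the 3 vehicle libraries from cells given PBS and then DMSO. All groups grew in RPMI medium with fetal bovine serum, the sources used here give no doses, and SB-505124 without Wnt3a was not analysed here, so SB-505124 against vehicle changes both agents at once. Whether replicates were separate cultures is not in the labels, and the p-values therefore reflect library-to-library spread that may be technical only.

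The libraries held between 28844348 and 42976799 expected counts. AXIN2, a transcriptional target of Wnt signalling, averaged 31.1 CPM (counts per 1000000 counts, scaled by TMM) in SB-505124, 20.1 CPM in Wnt3a and 3.29 CPM in vehicle libraries, and PMEPA1, a target of TGF-beta signalling, averaged 14.0, 48.3 and 47.2 CPM in the same order of groups. All 6 Ewing sarcoma markers were detected in every group, at a summed level of 1520 to 1920 CPM in SB-505124, 1670 to 1950 CPM in Wnt3a and 2090 to 2300 CPM in vehicle libraries. The 9 endothelial markers summed to 2.14 to 3.34 CPM in SB-505124, 4.17 to 4.33 CPM in Wnt3a and 3.46 to 4.48 CPM in vehicle libraries, with TEK at 0 in the SB-505124 and vehicle libraries. The 6 epithelial markers summed to no more than 2.33 CPM in any library. The 8 leukocyte markers summed to 5.43 to 9.46 CPM in SB-505124, 2.58 to 2.82 CPM in Wnt3a and 2.42 to 4.07 CPM in vehicle libraries, with CD3E at 0 in all of them, and the 7 fibroblast markers to 307 to 322 CPM, 411 to 655 CPM and 365 to 575 CPM. Single markers moved more than these sums: COL6A3 averaged 1.43 CPM in SB-505124, 29.2 CPM in Wnt3a and 2.18 CPM in vehicle libraries, LUM 35, 27 and 14.9 CPM, and the leukocyte marker CD68 6.45, 1.19 and 1.79 CPM. The endothelial marker ERG averaged 0.161, 1.54 and 0.97 CPM in the same order. Of the 6 Ewing sarcoma markers, 3 were lower in SB-505124 than in vehicle libraries at an edgeR adjusted p under 0.05. These were NKX2-2 (log2 -1.47), NR0B1 (log2 -0.95) and STEAP1 (log2 -0.65). That is 50%, against 49.7% of all genes tested, and the other 3 did not pass. The part of these markers in the results was not tested. On the first principal component, which held 56.5% of the variance, SB-505124 libraries lay apart from the rest. On the second, with 14.7%, SB-505124 replicate 1 lay at -66.9 and the other SB-505124 replicates at 26.9 and 24.5, and results that move without that library are given below.

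The promoters of NRP2 and SEMA3F are shown because these are the genes with the largest fold changes of the families in the comparison of SB-505124 with vehicle libraries. Sequences are the 250 bases before the transcription start in RefSeq (GRCh38.p14), 5′ to 3′ on the gene's strand, with motif matches in capitals. The motifs searched on both strands, with overlapping matches counted, were CTTTGA (TCF/LEF), CAGACA (SMAD), TGANTCA (AP-1), GGGCGG (the GC box) and GGAAGGAA (an ETS repeat).
NRP2, chr2:205682251-205682500, plus strand: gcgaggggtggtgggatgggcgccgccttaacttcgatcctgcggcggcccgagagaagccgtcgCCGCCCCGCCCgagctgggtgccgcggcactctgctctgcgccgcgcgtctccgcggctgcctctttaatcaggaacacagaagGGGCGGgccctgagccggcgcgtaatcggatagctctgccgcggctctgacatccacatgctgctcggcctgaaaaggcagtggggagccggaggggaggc
SEMA3F, chr3:50154808-50155057, plus strand: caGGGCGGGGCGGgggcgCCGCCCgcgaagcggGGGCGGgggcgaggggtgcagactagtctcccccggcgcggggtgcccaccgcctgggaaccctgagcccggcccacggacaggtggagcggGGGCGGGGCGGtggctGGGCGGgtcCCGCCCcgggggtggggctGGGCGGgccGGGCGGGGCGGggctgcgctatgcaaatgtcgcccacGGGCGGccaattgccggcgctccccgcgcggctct
SEMA3F, chr3:50158769-50159018, plus strand: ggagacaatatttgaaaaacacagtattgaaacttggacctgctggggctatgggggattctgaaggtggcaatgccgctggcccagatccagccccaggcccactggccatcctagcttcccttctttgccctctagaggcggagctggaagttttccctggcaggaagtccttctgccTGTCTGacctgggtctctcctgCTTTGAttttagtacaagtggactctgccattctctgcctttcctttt
The capitals in the NRP2 promoter are 3 GC boxes, starting 185, 180 and 101 bases before the start, and those in the SEMA3F promoter at the outermost start are 12 GC boxes. The capitals before the innermost SEMA3F start are 1 SMAD match, 70 bases before it, and 1 TCF/LEF match, 48 bases before it. Another SEMA3F start lies between the outermost and innermost, and its promoter (chr3:50155074-50155323, not printed) held 2 GC boxes and no other match. Only the innermost of the SEMA3F starts thus had a SMAD or TCF/LEF match. Of 48 promoters found for 27 of the 31 genes, 5 held a TCF/LEF match, 5 a SMAD match, 1 an AP-1 match, 30 a GC box and 1 an ETS repeat. Over all 35116 promoters in the table the shares with a match were 11.2%, 13.6%, 6.57%, 42.6% and 3.06% in the same order of motifs. A match describes the letters in this window and is not evidence of binding.

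PLXNB2, a receptor for SEMA4C, was the most abundant gene of the families at 156.0 ± 24.4 TPM (transcripts per 1000000, a level per transcript length) in SB-505124, 108.0 ± 10.2 TPM in Wnt3a and 99.5 ± 4.85 TPM in vehicle libraries (SD, n = 3 each). PLXNA3, a receptor for class 3 semaphorins, followed at 22.2 ± 5.12, 28.2 ± 7.02 and 25.4 ± 4.55 TPM. In vehicle cells the next levels were those of SEMA5B at 19.4 ± 3.69 TPM, PLXNB1 at 14.6 ± 5.9 TPM, SEMA4C at 13.8 ± 1.23 TPM and SEMA3C at 13.3 ± 1.99 TPM. Apart from PLXNB2, these neighbours differed by less than their combined spread. The number of genes at 10 TPM or more was 4 in SB-505124, 9 in Wnt3a and 8 in vehicle libraries, and 12, 9 and 10 genes lay under 1 TPM. On log2(TPM + 1) the median change over all genes tested was itself -0.23 for SB-505124 against Wnt3a and -0.17 against vehicle. The shares of all genes in these classes were not computed, so the counts are not read as particular to the families. SEMA3E, a ligand of PLXND1, and PLXNA4, a receptor for SEMA3A and SEMA6A, had too few counts to be tested: SEMA3E summed to 3, 0 and 5 counts and PLXNA4 to 15, 6 and 4 counts over the SB-505124, Wnt3a and vehicle libraries. The other 29 genes passed the filter on low counts.

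**Figure D1:**
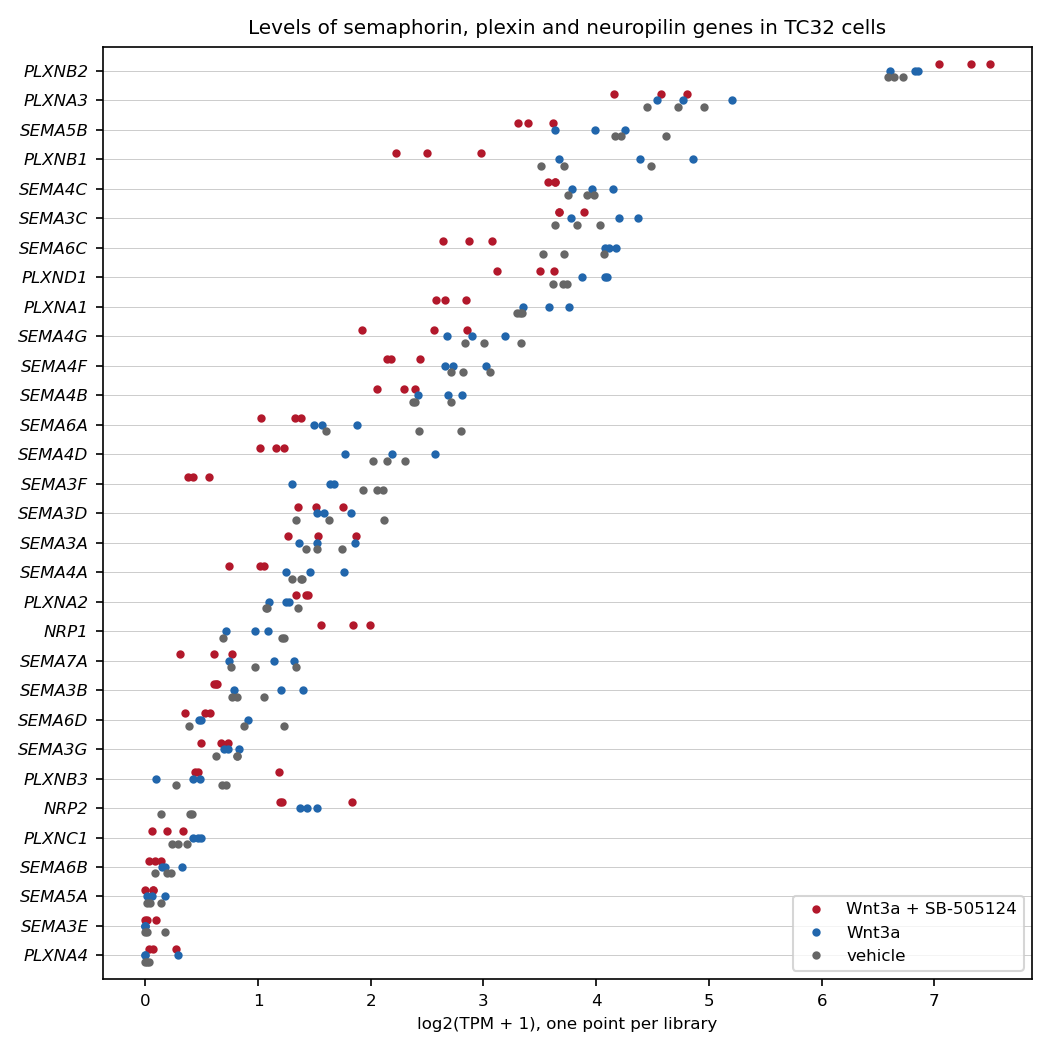
Level of each of the 31 genes, as log2(TPM + 1) on the horizontal axis, with 1 point per library and 1 row per gene, ordered by the mean in vehicle libraries. PLXNB2 stands above every other gene in all 9 libraries, while NRP2 sits to the right in SB-505124 and Wnt3a libraries and SEMA3F to the left in SB-505124 libraries.

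Under Wnt3a alone, NRP2 rose and no other gene of the families passed the test. This was 1 of 29 genes tested (3.45%), against 0.419% of all 17880 genes called in either direction by edgeR's quasi-likelihood test at an adjusted p under 0.05 (0.397% higher and 0.0224% lower). Another 3 of the 29 had an unadjusted p under 0.05, which makes 4 with NRP2, against 1362 of all 17880 genes. The median log2 fold change was -0.01 over the 29 genes and 0.01 over all genes tested.

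With SB-505124 added to Wnt3a, 3 genes rose (NRP1, PLXNB2 and PLXNB3) and 6 fell (PLXNA1, PLXNB1, SEMA3F, SEMA4D, SEMA4F and SEMA6C). That is 31% of the 29 tested, under the 50.4% of all genes called (24.5% higher and 25.9% lower). The median log2 fold change was -0.28 over the 29 genes and -0.06 over all genes. All 4 semaphorins called had fallen, and the plexins called were split between 2 higher and 2 lower.

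Between SB-505124 and vehicle libraries, 3 genes rose (NRP2, PLXNB2 and PLXNB3) and 8 fell, which were the 6 above with SEMA5B and SEMA6A. This was 37.9% of the 29, again under the 49.7% of all genes called (25% higher and 24.8% lower). The median log2 fold change was -0.29 over the 29 genes and -0.04 over all genes. Both comparisons use the same SB-505124 libraries, so their lists are not independent of each other. Without SB-505124 replicate 1 no call of either comparison was lost, and the counts became 4 higher and 8 lower against Wnt3a and 3 higher and 12 lower against vehicle. With library totals in place of TMM scaling, the median of all genes shifted to -0.31 (SB-505124 against Wnt3a) and -0.27 (SB-505124 against vehicle), and more genes were called lower throughout. Against Wnt3a, 3 of the families were then higher and 13 lower, against 2828 higher and 6425 lower of all genes, and against vehicle 2 were higher and 10 lower, against 3061 and 6036 of all genes.

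**Figure D2:**
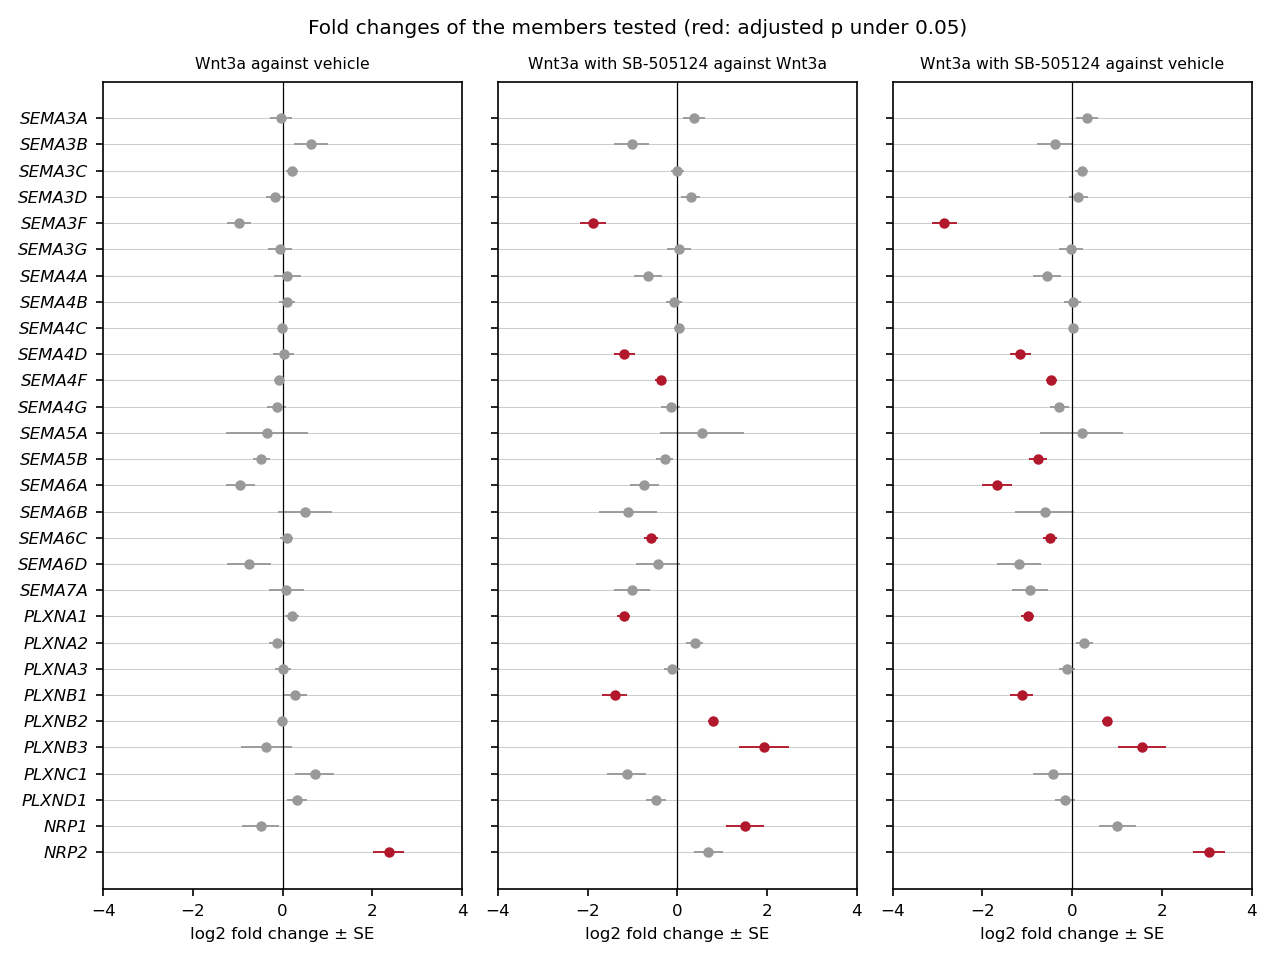
Log2 fold change (horizontal axis, ± SE from edgeR) of each of the 29 genes tested, in 1 panel per comparison, with genes past an adjusted p of 0.05 in red. NRP2 is the one red point for Wnt3a against vehicle at 2.36, and SEMA3F lies farthest to the left in both panels with SB-505124, at -1.88 and -2.85.

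Among the co-receptors, NRP2 (chr2:205681990-205798133, hg38), which binds SEMA3F and, in lymphatic endothelium, VEGFC, was the lowest of the 3 groups in vehicle cells and highest with SB-505124. It measured 5.16, 5.9 and 5.34 CPM in SB-505124, 3.52, 2.43 and 4.23 CPM in Wnt3a and 1.01, 0.412 and 0.563 CPM in vehicle libraries. The 3 groups did not overlap, and every Wnt3a library stood above every vehicle library. The rise under Wnt3a was 5.14-fold (log2 2.36, SE 0.35, edgeR adjusted p = 0.0183), from sums of 434 and 75 counts. SB-505124 against vehicle gave 8.27-fold (log2 3.05, SE 0.35, edgeR adjusted p = 8.42e-05), and SB-505124 against Wnt3a gave 1.61-fold (log2 0.69, SE 0.32, edgeR adjusted p = 0.0944), which missed the threshold. Per transcript length the SB-505124 and Wnt3a levels were 1.73 ± 0.731 and 1.72 ± 0.141 TPM, against 0.25 ± 0.13 TPM in vehicle libraries. The call under Wnt3a was lost in 5 of the 20 alternatives, in which the log2 fold change stayed between 2.11 and 2.35: the adjusted p was 0.0632 without vehicle replicate 2, 0.129 without vehicle replicate 3, 0.0767 without Wnt3a replicate 1, 0.0515 without Wnt3a replicate 3 and 0.0621 with only the 2 groups in the fit. In bulk RNA, fewer cells that express a gene and less RNA per cell cannot be told apart.

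NRP1 (chr10:33177492-33336262), the co-receptor for SEMA3A and VEGFA, was highest in SB-505124 libraries. Its levels were 3.72, 3.35 and 3.48 CPM in SB-505124, 1.11, 0.692 and 1.91 CPM in Wnt3a and 2.3, 0.921 and 2.02 CPM in vehicle libraries. All SB-505124 libraries stood above all others, while the Wnt3a and vehicle libraries overlapped. NRP1 rose 2.83-fold over Wnt3a (log2 1.5, SE 0.42, edgeR adjusted p = 0.013). Against vehicle it was 2.01-fold (log2 1.01, SE 0.41, edgeR adjusted p = 0.0655), a rise that 10 of the 20 alternatives called, among them DESeq2 (adjusted p = 0.0413) and limma-voom (0.0324). Wnt3a against vehicle gave log2 -0.49 (edgeR adjusted p = 0.876).

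NRP2 made up 58.1%, 63.8% and 60.5% of the counts of both neuropilins in SB-505124, 76.0%, 77.9% and 68.9% in Wnt3a and 30.5%, 30.9% and 21.8% in vehicle libraries. The 95% Clopper-Pearson intervals ran from 51.5% to 69.2% in SB-505124, from 63.0% to 84.4% in Wnt3a and from 14.2% to 44.8% in vehicle libraries, and cover counting error only. Vehicle cells thus held mainly NRP1 counts, and cells of both treated groups mainly NRP2 counts. Per length, NRP1 was the higher of the pair in all 3 vehicle libraries, NRP2 in all 3 Wnt3a libraries, and in SB-505124 libraries NRP2 led in replicate 2 alone.

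**Figure D3:**
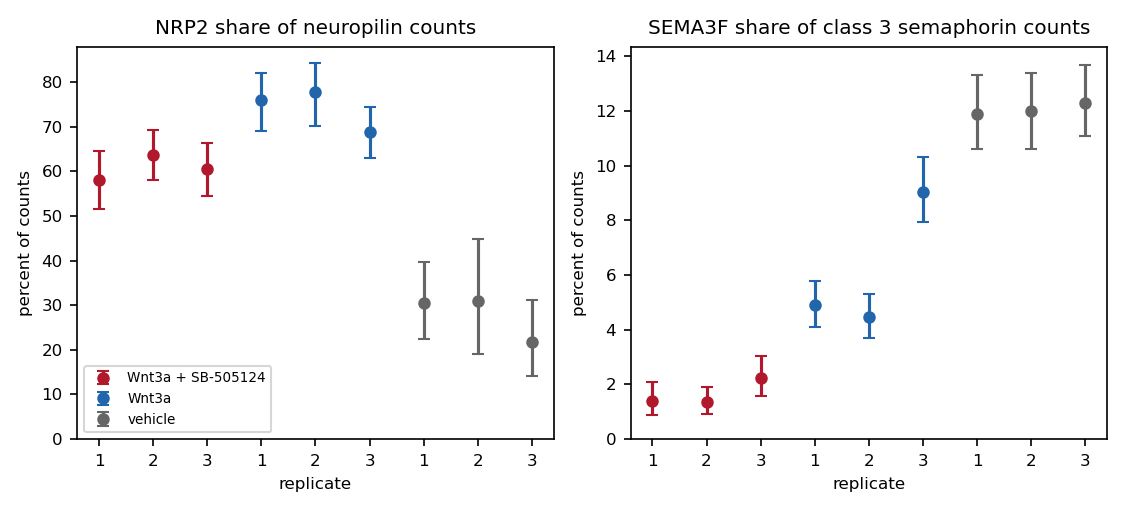
Percent of neuropilin counts from NRP2 (left) and of class 3 semaphorin counts from SEMA3F (right) in each library, with 95% Clopper-Pearson intervals for counting error. The NRP2 share is 58.1% to 63.8% in SB-505124, 68.9% to 77.9% in Wnt3a and 21.8% to 30.9% in vehicle libraries, while the SEMA3F share is 1.34% to 2.23%, 4.45% to 9.05% and 11.9% to 12.3%.

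Among the secreted ligands, SEMA3F (chr3:50155045-50189075), a repellent that signals through NRP2, had the largest fall of the families in both comparisons with SB-505124. It measured 0.835, 0.912 and 1.25 CPM in SB-505124, 3.29, 2.75 and 5.05 CPM in Wnt3a and 7.5, 6.52 and 7.7 CPM in vehicle libraries. In CPM the groups formed 3 separate steps with no overlap, opposite in order to NRP2, whose mean TPM was alike in SB-505124 and Wnt3a libraries. SEMA3F fell 3.69-fold with SB-505124 against Wnt3a (log2 -1.88, SE 0.28, edgeR adjusted p = 0.000378) and 7.22-fold against vehicle (log2 -2.85, SE 0.28, edgeR adjusted p = 3.57e-05). Wnt3a against vehicle gave log2 -0.97 (SE 0.26, edgeR adjusted p = 0.237), which DESeq2 called at -0.98 (adjusted p = 0.0299). The antisense gene SEMA3F-AS1 had 17, 8 and 19 counts in SB-505124, 59, 61 and 54 in Wnt3a and 34, 37 and 21 in vehicle libraries. The kit marks strand, but the strand setting of the counting is not given in the sources used here, so reads of this pair may not be fully separated.

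The other class 3 ligands did not pass the test in any comparison. SEMA3C, a ligand of both neuropilins, was the most abundant of them at 40.9 CPM in SB-505124, 40.8 CPM in Wnt3a and 35.3 CPM in vehicle libraries. As a share of class 3 counts, SEMA3F supplied 1.38%, 1.34% and 2.23% in SB-505124, 4.9%, 4.45% and 9.05% in Wnt3a and 11.9%, 12% and 12.3% in vehicle libraries. SEMA3B, which lies near SEMA3F on chromosome 3, was at log2 -1.02 in SB-505124 against Wnt3a (edgeR adjusted p = 0.051). In that comparison 6 of the 20 alternatives called it lower, among them DESeq2 (adjusted p = 0.046). SEMA3A, SEMA3D and SEMA3G stayed on the far side of the threshold in all 3 comparisons, although SEMA3A was called higher against Wnt3a without SB-505124 replicate 1 (log2 0.58, edgeR adjusted p = 0.047).

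Of the membrane-bound ligands, SEMA4D, which binds PLXNB1, fell to 4.48, 3.59 and 3.36 CPM in SB-505124 libraries, against 9.22, 10.6 and 6.01 CPM in Wnt3a and 6.89, 9.89 and 8.57 CPM in vehicle libraries. Every SB-505124 library lay below every other library, and the Wnt3a and vehicle libraries overlapped. The fall was 2.26-fold against Wnt3a (log2 -1.18, SE 0.24, edgeR adjusted p = 0.00268) and 2.22-fold against vehicle (log2 -1.15, edgeR adjusted p = 0.00306). SEMA4F, a membrane semaphorin of neurons and glia, had a small fall, with 10.7, 9.76 and 9.14 CPM in SB-505124, 12.6, 12.7 and 13.1 CPM in Wnt3a and 13.7, 13.0 and 13.9 CPM in vehicle libraries. Its change was log2 -0.37 against Wnt3a (SE 0.12, edgeR adjusted p = 0.0237) and -0.46 against vehicle (edgeR adjusted p = 0.00924). The first of these calls was lost without any 1 of the Wnt3a replicates (adjusted p 0.0547 to 0.0659) and without SB-505124 replicate 2 (0.0695) or 3 (0.0923), and also without the filter on low counts (0.108) and with a length offset (0.13); the second was lost only without the filter (0.0504). SEMA4C, the ligand of PLXNB2, averaged 32.3, 31.7 and 31.8 CPM in the SB-505124, Wnt3a and vehicle libraries and was not called. On log2(TPM + 1) it was called lower against Wnt3a (log2 -0.35, limma adjusted p = 0.0446), where the median of all genes was -0.23. SEMA4A, SEMA4B and SEMA4G were not called in any comparison. Without SB-505124 replicate 1, SEMA4A was called lower against Wnt3a (log2 -0.97, edgeR adjusted p = 0.0185) and vehicle (log2 -0.87, edgeR adjusted p = 0.0308), and SEMA4G against vehicle (log2 -0.52, edgeR adjusted p = 0.0454).

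SEMA6C, a transmembrane ligand of type A plexins, had 21.6, 17.3 and 18.5 CPM in SB-505124, 26.1, 33.0 and 27.1 CPM in Wnt3a and 24.4, 31.4 and 25.1 CPM in vehicle libraries. It fell 1.5-fold against Wnt3a (log2 -0.59, SE 0.15, edgeR adjusted p = 0.0072) and 1.41-fold against vehicle (log2 -0.49, edgeR adjusted p = 0.017). The call against vehicle was lost without vehicle replicate 2 (adjusted p = 0.0638), SB-505124 replicate 2 (0.0687) or SB-505124 replicate 3 (0.0557). SEMA6A, a ligand of PLXNA2 and PLXNA4, had 2.39, 3.95 and 3.93 CPM in SB-505124, 4.48, 5.34 and 7.42 CPM in Wnt3a and 12.2, 6.61 and 14.3 CPM in vehicle libraries. All SB-505124 libraries were below the others, and vehicle replicate 2 fell within the range of the Wnt3a libraries. SEMA6A fell 3.21-fold with SB-505124 against vehicle (log2 -1.68, SE 0.33, edgeR adjusted p = 0.00188), and neither step on its own passed (Wnt3a against vehicle log2 -0.94, edgeR adjusted p = 0.434, and SB-505124 against Wnt3a log2 -0.74, edgeR adjusted p = 0.0792). SEMA6B and SEMA6D were not called, but 6 alternatives called SEMA6D lower against vehicle, among them DESeq2 (log2 -1.19, adjusted p = 0.044) and the fit without SB-505124 replicate 1 (log2 -1.55, edgeR adjusted p = 0.0407).

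SEMA5B, a transmembrane ligand with thrombospondin repeats that repels axons in mice, had the highest TPM of the semaphorins in each vehicle library, and SEMA3C in each SB-505124 library. SEMA5B had 18.0, 23.4 and 26.6 CPM in SB-505124, 23.7, 34.0 and 25.1 CPM in Wnt3a and 34.5, 46.8 and 34.0 CPM in vehicle libraries. The SB-505124 and Wnt3a libraries overlapped, and both lay below every vehicle library, for Wnt3a replicate 2 by a margin lost in rounding. It fell 1.69-fold with SB-505124 against vehicle (log2 -0.76, SE 0.19, edgeR adjusted p = 0.00861). Summed over all 20 semaphorins the level was 61.5, 60.1 and 64.5 TPM in SB-505124, 99.0, 108.3 and 86.7 TPM in Wnt3a and 91.4, 103.4 and 98.9 TPM in vehicle libraries. TPM values share 1 total per library, so this sum describes semaphorin transcripts relative to all others.

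**Figure D4:**
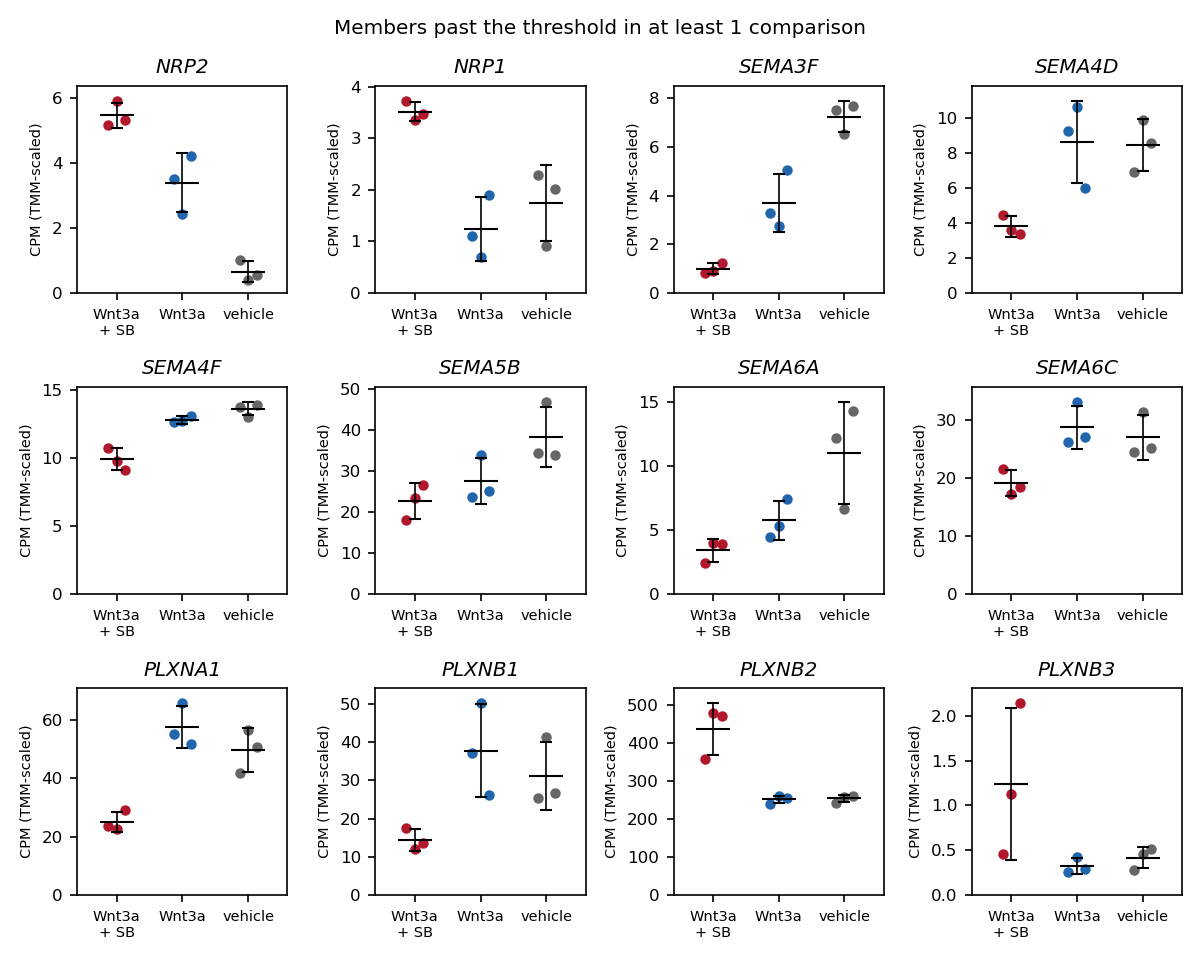
TMM-scaled CPM (vertical axis, from 0) of the 12 genes called in at least 1 comparison, with 1 point per library, a bar at the mean of 3 libraries and error bars of 1 SD, and SB standing for SB-505124. In CPM, NRP2 and SEMA3F step in opposite directions over the 3 groups. The NRP2 step from Wnt3a to SB-505124 and the SEMA3F step from vehicle to Wnt3a missed the threshold. PLXNB2 is higher only in SB-505124 libraries, and PLXNB3 spreads from 0.455 to 2.14 CPM there.

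Among the receptors, the type B plexins divided. PLXNB1 (the SEMA4D receptor, which also associates with MET) had 17.5, 12 and 13.6 CPM in SB-505124, 37.1, 50.2 and 26.1 CPM in Wnt3a and 25.4, 41.4 and 26.6 CPM in vehicle libraries. PLXNB2 (chr22:50274979-50307627) had 358, 479 and 470 CPM in SB-505124, 240, 259 and 254 CPM in Wnt3a and 243, 258 and 260 CPM in vehicle libraries. In both genes the SB-505124 libraries were clear of all others, below them for PLXNB1 and above them for PLXNB2. PLXNB1 fell 2.63-fold against Wnt3a (log2 -1.4, SE 0.27, edgeR adjusted p = 0.00166) and 2.17-fold against vehicle (log2 -1.12, edgeR adjusted p = 0.00567). PLXNB2 rose 1.74-fold against Wnt3a (log2 0.8, SE 0.11, edgeR adjusted p = 0.000304) and 1.72-fold against vehicle (log2 0.78, edgeR adjusted p = 0.000338). SEMA4D fell in the same 2 comparisons as its receptor PLXNB1, while SEMA4C, the ligand of PLXNB2, was not called in either.

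PLXNB3 (chrX:153764196-153779346), a receptor for SEMA5A, was called higher at low levels, between 0.455 and 2.14 CPM in SB-505124, 0.253 and 0.424 CPM in Wnt3a and 0.281 and 0.512 CPM in vehicle libraries. Its change was log2 1.93 against Wnt3a (SE 0.55, edgeR adjusted p = 0.015) and 1.56 against vehicle (edgeR adjusted p = 0.0356), where the groups overlapped. Without SB-505124 replicate 3 neither call held (adjusted p = 0.0818 against Wnt3a, and log2 0.93 with adjusted p = 0.192 against vehicle). The call against Wnt3a was also lost without Wnt3a replicate 1 (0.0554), and that against vehicle without vehicle replicate 1 (0.114), 2 (0.0722) or 3 (0.0625) or SB-505124 replicate 2 (0.0621). On the TPM scale the limma adjusted p against Wnt3a was 0.187 or 0.176 with a pseudocount of 1 or 0.1, and with a length offset the edgeR value was 0.0892. Against vehicle, 11 of the 19 alternatives in which the gene was tested ended the call, with adjusted p up to 0.692. The gene overlaps SRPK3 on the same strand, so reads in the shared stretch cannot be assigned with certainty.

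PLXNA1 (chr3:126988594-127037392), a neuropilin partner that also serves as a receptor for SEMA6D, had 23.6, 22.7 and 29.1 CPM in SB-505124, 55.3, 65.8 and 52.0 CPM in Wnt3a and 41.9, 56.8 and 50.8 CPM in vehicle libraries. All SB-505124 libraries were lower than all others. It fell 2.3-fold against Wnt3a (log2 -1.2, SE 0.15, edgeR adjusted p = 0.000129) and 1.98-fold against vehicle (log2 -0.99, edgeR adjusted p = 0.000395). PLXNA2, PLXNA3 and PLXND1, the SEMA3E receptor, were not called in any comparison. Against Wnt3a, 4 of the 20 alternatives called PLXND1 lower with SB-505124: library totals, no filter and both TPM tests. With a length offset PLXNA2 was called higher against Wnt3a (log2 0.66, edgeR adjusted p = 0.0173) and vehicle (log2 0.64, edgeR adjusted p = 0.02). PLXNC1, the receptor of the lipid-anchored semaphorin SEMA7A, was at log2 -1.13 in SB-505124 against Wnt3a (edgeR adjusted p = 0.0537), and SEMA7A at log2 -1.01 (edgeR adjusted p = 0.0588). In that comparison 7 of the 20 alternatives called PLXNC1 lower and 5 called SEMA7A lower, in each case with DESeq2 among them. Without SB-505124 replicate 1, SEMA7A was called lower against Wnt3a (log2 -1.29, edgeR adjusted p = 0.0334) and against vehicle (log2 -1.21, edgeR adjusted p = 0.0445).

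PLXNB2 supplied 72.6%, 82.1% and 77.2% of the summed plexin TPM in SB-505124, 60.7%, 54.9% and 61.0% in Wnt3a and 64.2%, 58.5% and 61.7% in vehicle libraries. The other 8 plexins together had 49.2, 39.0 and 47.1 TPM in SB-505124, 73.0, 94.3 and 61.5 TPM in Wnt3a and 53.2, 74.4 and 61.2 TPM in vehicle libraries. The PLXNB2 share was thus higher in every SB-505124 library than in any other, and the level of the remaining plexins lower.

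The tables also give a mean transcript length per gene and library, weighted by the estimated isoform abundance. For PLXNA1 it was 5279, 5384 and 5751 bases in SB-505124, 7598, 8296 and 8359 bases in Wnt3a and 6646, 8993 and 8421 bases in vehicle libraries. For SEMA6A it was 2738, 3120 and 3002 bases in SB-505124, 3738, 4308 and 4123 bases in Wnt3a and 4034, 4645 and 3535 bases in vehicle libraries. Both were shorter in all SB-505124 libraries than in any other, and SEMA4C and SEMA6C were longer in all SB-505124 than in all Wnt3a libraries. An exact two-sided permutation test gives p = 0.1 for each such pair of groups, the smallest that 3 libraries against 3 allow. Over the 17106 genes with at least 90 counts in all, 13.4% were shorter and 4.73% longer without overlap between SB-505124 and Wnt3a libraries, against 2 shorter and 2 longer of the 29 genes here. With vehicle libraries these shares were 13.0% and 4.54%, and NRP1, PLXNA1, PLXNA2, SEMA3F and SEMA6A were shorter. Between Wnt3a and vehicle libraries, 0 of the 29 were apart in either direction, against 3.22% shorter and 3.68% longer over all genes.

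**Figure D5:**
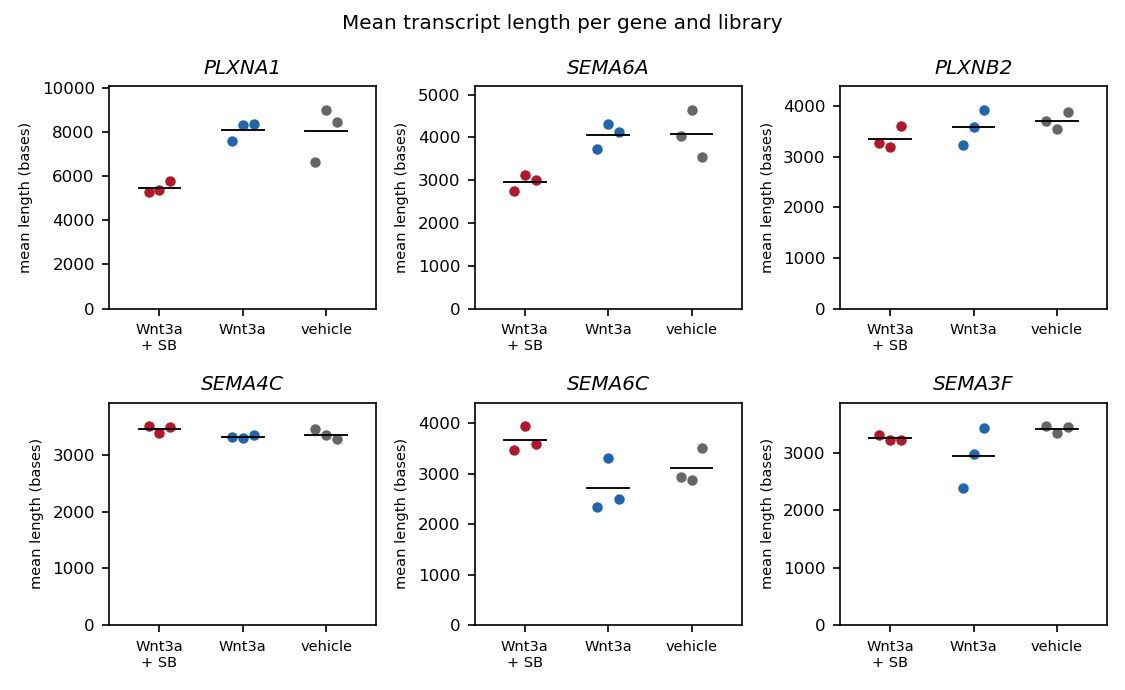
Abundance-weighted mean transcript length in bases (vertical axis, from 0) of 6 genes, with 1 point per library, a bar at the mean of 3 libraries, and SB standing for SB-505124. PLXNA1 and SEMA6A are shorter in SB-505124 libraries, at 5279 to 5751 and 2738 to 3120 bases, than in every Wnt3a and vehicle library.

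Of the genes around these receptors, the VEGF ligands and receptors had 4 of 8 genes with enough counts to test. None passed under Wnt3a. With SB-505124 against Wnt3a, PGF, a placental VEGF relative that binds neuropilins, rose (log2 3.96, SE 0.41, edgeR adjusted p = 4.97e-05) and VEGFA fell (log2 -0.93, SE 0.16, edgeR adjusted p = 0.000915). Both moved the same way against vehicle, where VEGFB also fell (log2 -0.42, edgeR adjusted p = 0.0118). Of the 4 tested, 50% were thus called against Wnt3a, close to the 50.4% of all genes. Against vehicle 75% were called, against 49.7% of all genes. Of 10 tested receptor partners, 2 were called against Wnt3a (20%, under the 50.4% of all genes): SDC3, a heparan sulphate proteoglycan, and CSPG4, a chondroitin sulphate proteoglycan, both fell (log2 -1.96, edgeR adjusted p = 0.000106, and log2 -1.4, edgeR adjusted p = 0.0433).

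Of 39 tested cytoplasmic transducers, 1 rose under Wnt3a, the plexin-binding protein FARP1 (log2 0.62, SE 0.09, edgeR adjusted p = 0.018). That single gene is 2.56% of those tested, against 0.419% of all genes called. With SB-505124 against Wnt3a, 11 rose and 9 fell, which is 51.3% called and close to the 50.4% of all genes. The falls included MICAL3, of the MICAL family of actin-oxidising enzymes (log2 -1.24), PIP5K1C, a phosphoinositide kinase of focal adhesions (log2 -1.07), and LIMK1, a kinase of cofilin (log2 -0.75), and the rises RHOD, a small GTPase that binds plexins (log2 1.14). Of 4 proprotein convertases, enzymes that cleave class 3 semaphorins, PCSK7 and PCSK6 fell with SB-505124 against Wnt3a (log2 -0.6 and -0.61, edgeR adjusted p = 0.00128 and 0.0445). That is 50% called, close to the 50.4% of all genes. Against vehicle PCSK7 alone was called (log2 -0.46, edgeR adjusted p = 0.00543), which is 25% against 49.7% of all genes. FURIN and PCSK5 were not called in any comparison.

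Among 32 tested genes of other guidance systems, ROBO2, a receptor for SLIT proteins, rose under Wnt3a (log2 1.04, SE 0.13, edgeR adjusted p = 0.00831). It was the only one called, which is 3.12%, against 0.419% of all genes. With SB-505124 against Wnt3a, 6 rose and 7 fell (40.6%, under the 50.4% of all genes), among them the ephrin receptors EPHA2 (log2 1.92) and EPHA4 (log2 -1.12), the netrin NTN3 (log2 -1.92) and the netrin receptor DCC (log2 0.58). Against vehicle, 8 rose and 7 fell (46.9%, against 49.7% of all genes).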

How the data were processed

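Stranded polyA RNA-seq libraries of 9 samples, 3 per group by their titles, were used. Reads were processed with CASAVA 1.8.2, Trimmomatic 0.36, STAR 2.5.2a and RSEM 1.2.31 against hg38, per the submitters' processing notes; what each tool did and its settings were not given in the sources used here. The authors deposited expected counts, TPM, FPKM and lengths per gene and library. The deposited FPKM values were not used. Rows with the same gene ID were summed.

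Expected counts were rounded and tested with edgeR 4.0.16 (quasi-likelihood F test, filterByExpr, TMM scaling, 1 model of 3 groups, R 4.3.3), with Benjamini-Hochberg adjustment over all 17880 genes kept and a threshold of 0.05. CPM values are scaled by TMM, which takes most genes as unchanged. The fit was tested first on simulated counts with known changes in the Wnt3a group alone, scored against vehicle. That test does not cover the comparisons with SB-505124, where 50.4% (against Wnt3a) and 49.7% (against vehicle) of all genes were called. Depth, 28844348 to 42976799 counts, leaves genes under 1 CPM with few reads. Coordinates and overlaps come from GENCODE 29. The labels state no pairing by replicate number, and the main fit used none. Deviations from the group means correlated at -0.18 to 0.42 between same-numbered libraries of different groups. Between libraries of different number the range was -0.45 to 0.31. The 2 ranges overlap, so they cannot decide whether the libraries were paired. The authors' deposited TPM was tested with limma 3.58.1 on log2(TPM + 1) and log2(TPM + 0.1) as an alternative, and DESeq2 1.42.0 and limma-voom served as others among 20.

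The genes and lists were chosen with earlier results of these data known. Named genes are all those matching the family names, with values per library for those called in at least 1 comparison with a mean of at least 1 TPM in a group, and up to 4 genes per other list and comparison with the smallest adjusted p.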

Additional observations from a re-analysis of the deposited data

How the results depend on the processing

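Under 20 alternatives (other scaling, filters and tools, TPM, a length offset, the replicate number as a block, only the 2 groups compared, and each library left out), PLXNA1, PLXNB1, PLXNB2, SEMA3F and SEMA4D kept their calls in both comparisons with SB-505124. For Wnt3a against vehicle, genes of the families called were 2 (1 lower) with DESeq2 and 0 (0 higher) with only the 2 groups compared, and genes called in all were 259 without the filter and 299 with DESeq2, against 75. For SB-505124 against Wnt3a, library totals gave 16 calls (13 lower) and both TPM tests 14 (12 lower), against 9 (6 lower); all genes shifted too, to 2828 higher and 6425 lower, and to 2293 and 6352 (pseudocount 1) or 2258 and 6475 (0.1). SEMA4C, at log2 0.03, was called lower on TPM (log2 -0.35 and -0.38, limma adjusted p = 0.0446 and 0.041). In these 2 TPM tests the median of all genes was -0.23 and -0.34. The cause was not tested. With each library left out, calls in the families ranged from 0 to 1 for Wnt3a against vehicle, from 7 to 12 (2 to 4 higher, 5 to 8 lower) for SB-505124 against Wnt3a and from 9 to 15 (2 to 4 higher, 7 to 12 lower) for SB-505124 against vehicle. Over all genes the ranges were 20 to 140, 7411 to 9613 and 7575 to 9262. The replicate block gave 1, 9 and 13 calls in the families.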
